A study of Mus with 4 samples.

Results

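A set of 10 genes that mark endothelial cells was followed in RNA-seq of newborn mouse hearts. The genes were listed by name and Ensembl gene ID, by a rule that uses no measured value, although earlier results of these data were known when the list was made. All 10 were found among the 55487 IDs of the deposited table. They are *Pecam1*, *Cdh5*, *Tek*, *Tie1*, *Eng*, *Emcn*, *Vwf*, *Nos3*, *Erg* and *Egfl7*. The comparison asked how raised miR-187, a microRNA, alters the transcriptome of the heart at P0, the day of birth. There were 4 libraries, 2 labelled WT and 2 labelled miR-187, all with heart given as the tissue. The miR-187 animals were of a knock-in (KI) line on a C57BL/6J background. In this line a copy of mmu-miR-187, under the *Tek* (*Tie2*) promoter and a *Tek* enhancer, sits at the *Rosa26* locus. The labels do not give the zygosity; the methods name KI/KI and WT animals at P0. The methods state that both sexes were studied; the sex behind each library, and whether a library came from 1 heart or several, was not given in the sources used here. The methods speak of cardiac endothelial cells for this RNA-seq, whereas the labels give heart, and the labels are followed here. Nothing says that the replicates came from separate litters, so p-values do not cover a spread between litters. They rest on the spread between these libraries, drawn largely from all IDs and not from the single gene.

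Endothelial cells line the blood vessels and, as the endocardium, the chambers of the heart. They are joined by adhesion molecules such as those made by *Pecam1* and *Cdh5*, and they carry receptors that read signals of vessel growth and stability, among them the products of *Tek*, *Tie1* and *Eng*. None of the 10 genes is a marker of cardiomyocytes. *Tek* has a special place in this design, because its promoter drives the transgene; that promoter is also known to be active in some blood-forming cells.

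The sequences that could be given are those of the study's reagents. The guide RNA defines where the miR-187 line was altered, and the primer pairs mark the members that the study itself measured by RT-qPCR in mouse cells, *Tie1* and *Cdh5*. The RNA-seq values below cover whole transcripts and not these stretches alone. The bases are in lower case throughout, 5′ to 3′, and their positions in the genome were not determined here.
Rosa26 guide: ggcaggcttaaaggctaacc
Tie1 forward primer: ggcagcatgaaacttcgcaagc
Tie1 reverse primer: accagaagtcgatacgcggcat
Cdh5 forward primer: gaacgaggacagcaacttcacc
Cdh5 reverse primer: gttagcgtgctggttccagtca

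Values are the authors' FPKM (fragments per kilobase of transcript, scaled to the mapped fragments of the library), a level per length that allows genes to be set side by side. Read depth was unknown, since the table holds no counts. The libraries were not alike in makeup. The ID with the highest mean took 18.5% (WT) and 21.0% (miR-187) of the FPKM sum of the replicate 1 libraries, but 4.45% (WT) and 3.03% (miR-187) of that of the replicate 2 libraries. In miR-187 replicate 2, 16 IDs reached 10 FPKM or more while exceeding every other library by a factor of 10 or more, against 0 to 4 such IDs in the others. What part these features had in the values below was not tested. The calls, the counts of groups without overlap, and the single and median differences were computed again with other scalings and without each library. So was the ratio of summed levels, except with quantile normalization. Percentiles, highest and lowest libraries, deviations, replicate gaps and IDs of like pattern were computed once, on the FPKM as deposited. Markers of cardiomyocytes and other cell types were not analysed here, since the IDs come without gene names, so the label heart was not checked against them.

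All 10 genes were detected in all 4 libraries and were well above the limit for testing, a mean of 1 FPKM. *Egfl7* was the most abundant in every library, with a mean of 186 FPKM over the 4. Below it came *Emcn* (45.7 FPKM), *Pecam1* (43.7 FPKM), *Eng* (33.1 FPKM) and *Cdh5* (30.2 FPKM), whose values overlapped and whose order changed between libraries. *Tie1* followed at 14.0 FPKM, lower than those 4 genes in each library. *Tek* (8.88 FPKM), *Nos3* (6.28 FPKM) and *Vwf* (6.08 FPKM) formed a further overlapping group, and *Erg* was lowest in every library at 3.20 FPKM. In miR-187 replicate 1, however, *Tek* (16.23 FPKM) stood just above *Tie1* (16.19 FPKM). Among the 14325 IDs tested, *Egfl7* lay above 96.7% to 98.3% of IDs in each library. *Erg* lay above 36.8% to 47.8%.

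**Figure D1:**
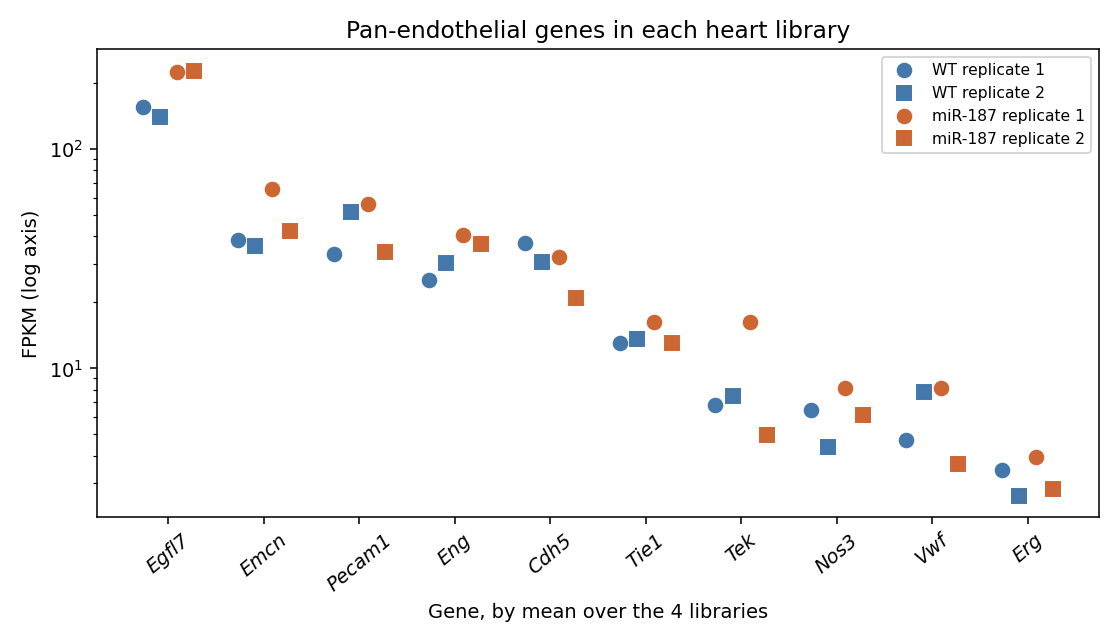
FPKM (log axis) of the 10 pan-endothelial genes in each library, ordered by their mean, with circles for replicate 1 and squares for replicate 2, WT in blue and miR-187 in orange. *Egfl7* is highest and *Erg* lowest in every library, and for 8 of the 10 genes the highest point is miR-187 replicate 1.

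The summed level of the 10 genes was higher in the miR-187 libraries. It was 323.3 and 323.4 FPKM in the WT libraries and 471 and 392 FPKM in miR-187 replicates 1 and 2, so the groups did not overlap. The WT mean was 323.4 ± 0.0301 FPKM and the miR-187 mean 431 ± 56.4 FPKM (SD, n = 2 each), a ratio of 1.33. *Egfl7* made up 43.0% to 57.9% of the sum. Without *Egfl7*, the sums were 169 and 184 FPKM for WT, against 247 and 165 FPKM for miR-187, and the groups overlapped. In whole tissue, fewer endothelial cells and less RNA per endothelial cell cannot be told apart, and the same holds for more of either. RNA of these genes from other cells cannot be separated either, since markers of other cell types were not analysed.

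**Figure D2:**
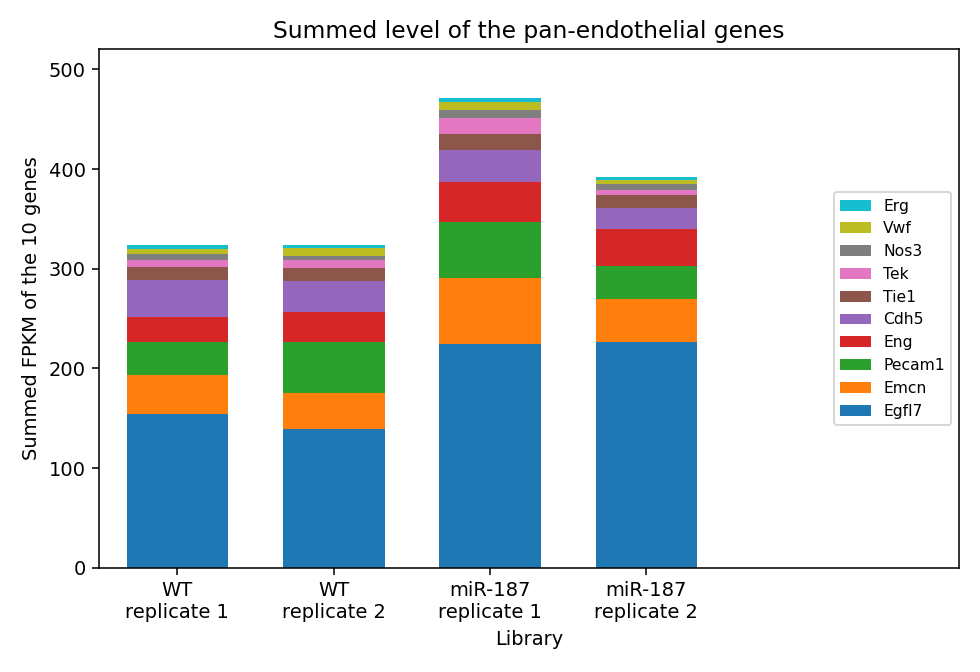
Summed FPKM of the 10 genes in each library, with 1 coloured segment per gene. The WT bars reach 323.3 and 323.4 FPKM and the miR-187 bars 471 and 392 FPKM, and without the *Egfl7* segment miR-187 replicate 2 reaches 165 FPKM, below the 169 and 184 FPKM of the WT libraries.

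Differential expression was tested with limma over all 14325 IDs. None of the 10 genes passed a Benjamini-Hochberg adjusted p of 0.05, with 0 higher and 0 lower in miR-187; over all IDs tested, 0% were called higher and 0.00698% lower. The adjusted p was 1.00 for each of the 10 genes (limma). At an unadjusted p under 0.05 the count was also 0 of 10, against 3.12% of all IDs, and the unadjusted limma p of the 10 genes ran from 0.153 to 0.872. It became 1 of 10 with quantile normalization (*Egfl7*), against 3.20% of all IDs. An exact permutation test was not used for single genes, because 2 libraries against 2 cannot give a two-sided p below 0.333. The signs were mostly positive. The log2 difference, miR-187 minus WT on the log2(FPKM + 1) scale, was above 0 for 8 of 10 genes, against 44.3% of all IDs. Its median was 0.21 over the 10 genes and -0.04 over all IDs. The direction rested on miR-187 replicate 1, without which 4 of 10 differences were above 0 and the median was -0.05, beside -0.14 over all IDs. The groups did not overlap, with miR-187 above, for 3 of 10 genes (*Egfl7*, *Emcn* and *Eng*), against 12.3% of all IDs. The reverse held for 0 of 10 genes, against 13.2%. With the libraries rescaled by trimmed means of M-values (TMM), *Tie1* and *Nos3* joined the former, making 5 of 10 against 14.1%, and *Cdh5* made 1 of 10 of the latter against 12.7%.

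**Figure D3:**
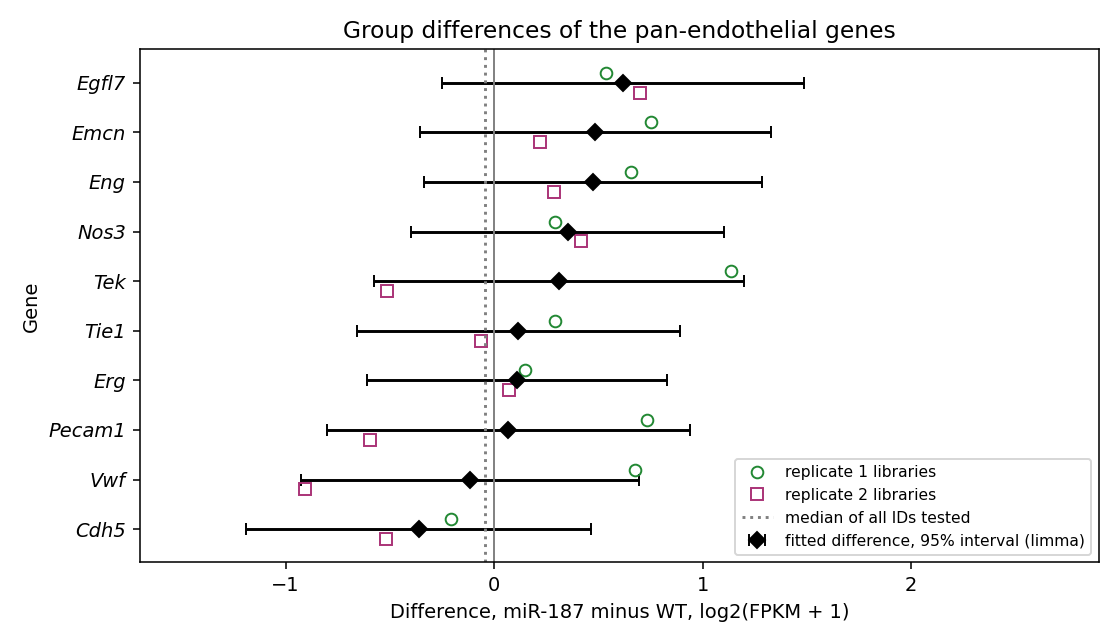
Difference between miR-187 and WT for each gene on the log2(FPKM + 1) scale. Black diamonds and bars are the limma estimate and its 95% interval, and the dotted line is the median of all IDs tested (-0.04). Open symbols are the differences between libraries of the same replicate number, which the labels do not pair. All 10 intervals cross 0.

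The junction genes gave no common direction. *Pecam1* (ENSMUSG00000020717.19, chr11:106654213-106715281) encodes the adhesion molecule CD31. WT replicates 1 and 2 had 33.4 and 51.5 FPKM, and the corresponding miR-187 libraries had 56.1 and 33.8 FPKM. Each miR-187 library had a WT library close to it, and the groups overlapped. The WT mean was 42.4 ± 12.9 FPKM and the miR-187 mean 44.9 ± 15.7 FPKM (SD, n = 2 each), a log2 difference of 0.07 (SE 0.42). The 95% interval, given here and below as a fold on the FPKM + 1 scale, ran from 0.574 to 1.92. Between the replicate 1 libraries *Pecam1* was higher in miR-187, by 0.73 on the log2 scale, and between the replicate 2 libraries it was lower, at -0.59. The sign of the group difference turned without WT replicate 1 (-0.24) and without miR-187 replicate 1 (-0.29).

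*Cdh5* (ENSMUSG00000031871.9, chr8:104101613-104144504) encodes VE-cadherin, the cadherin of endothelial adherens junctions. It had the lowest group difference of the set. The WT libraries gave 37.2 and 30.5 FPKM, the miR-187 libraries 32.1 and 21.0 FPKM (replicates 1 and 2 in that order, here and below). The groups overlapped, since miR-187 replicate 1 lay between the WT libraries, while miR-187 replicate 2 was the lowest of the 4. Means were 33.8 ± 4.75 and 26.5 ± 7.81 FPKM (SD, n = 2 each), which gave a log2 difference of -0.36 (SE 0.40) and an interval from 0.438 to 1.38. The difference shrank to -0.068 without miR-187 replicate 2 and was -0.66 without miR-187 replicate 1. The ratio of *Cdh5* to *Pecam1*, which does not depend on library scaling, was 1.11 and 0.591 in WT and 0.572 and 0.622 in miR-187. One WT library therefore stood apart in this ratio, and the groups overlapped.

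Of the receptors, *Tek* and *Tie1* encode related receptor tyrosine kinases; the product of *Tek* binds the angiopoietins, and that of *Tie1* acts beside it. *Tek* (ENSMUSG00000006386.15, chr4:94739086-94874976) was the most variable of the 10 genes. It stood at 6.83 and 7.50 FPKM in the WT hearts, against 16.2 and 4.96 FPKM in the miR-187 hearts. The WT libraries were close together, and the miR-187 libraries lay on either side of them, 3.27-fold apart. Means were 7.17 ± 0.474 and 10.6 ± 7.97 FPKM (SD, n = 2 each). The log2 difference of 0.31 (SE 0.43, interval 0.672 to 2.29) rested on miR-187 replicate 1, and without that library it was -0.45.

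*Tie1* (ENSMUSG00000033191.14, chr4:118471191-118489849) was the least variable of the set, with 13.0 and 13.6 FPKM in the WT hearts, against 16.2 and 13.0 FPKM in the miR-187 hearts. The highest value was 1.24 times the lowest, and miR-187 replicate 2 equalled WT replicate 1 to within 0.1 FPKM. Means were 13.3 ± 0.422 and 14.6 ± 2.23 FPKM (SD, n = 2 each), a log2 difference of 0.12 (SE 0.37, interval 0.634 to 1.85). It was -0.030 without miR-187 replicate 1 and 0.26 without miR-187 replicate 2. Set against *Tie1* in the same library, *Tek* stood at 0.524 and 0.550 in WT, at 1.00 in miR-187 replicate 1 and at 0.381 in miR-187 replicate 2. The WT libraries thus agreed in this ratio, and the miR-187 libraries departed from it in opposite directions.

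*Eng* (ENSMUSG00000026814.16, chr2:32646595-32682669) encodes endoglin, a co-receptor for ligands of the TGF-β and BMP family. The WT libraries gave 25.2 and 30.1 FPKM, the miR-187 libraries 40.3 and 36.9 FPKM, so that the groups did not overlap. The means of 27.6 ± 3.45 and 38.6 ± 2.39 FPKM (SD, n = 2 each) gave a ratio of 1.40 and a log2 difference of 0.47 (SE 0.39, interval 0.791 to 2.44). This difference was larger than the gap between replicates of either group, which was 0.25 in WT and -0.12 in miR-187, yet it did not pass the limma test.

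The surface sialomucin endomucin is encoded by *Emcn* (ENSMUSG00000054690.17, chr3:137341062-137431069), which is known from capillaries, veins and endocardium. The WT libraries gave 38.5 and 36.2 FPKM, the miR-187 libraries 65.5 and 42.4 FPKM. The groups did not overlap, but miR-187 replicate 2 was nearer to WT than to miR-187 replicate 1. Means were 37.4 ± 1.63 and 53.9 ± 16.3 FPKM (SD, n = 2 each), a ratio of 1.44 and a log2 difference of 0.49 (SE 0.41, interval 0.781 to 2.51). Without miR-187 replicate 1 the latter was 0.18, and without miR-187 replicate 2 it was 0.79.

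Of the secreted products, *Egfl7* (ENSMUSG00000026921.20, chr2:26581083-26592682) encodes a protein deposited around growing vessels, and *Mir126a* and *Mir126b*, microRNAs of endothelial cells, lie inside the gene. It reached 155 and 139 FPKM in the WT hearts, against 225 and 227 FPKM in the miR-187 hearts. The groups did not overlap, and the miR-187 libraries were almost equal. Means were 147 ± 10.9 and 226 ± 1.41 FPKM (SD, n = 2 each), a ratio of 1.54. The log2 difference of 0.62 (SE 0.42, interval 0.841 to 2.80) was the largest of the 10 and, like that of *Eng*, exceeded both gaps between replicates. Such a difference was seen for 2 of 10 genes, against 14.4% of all IDs. Leaving out any 1 library kept it between 0.54 and 0.69.

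*Vwf* (ENSMUSG00000001930.17, chr6:125552948-125686679) encodes von Willebrand factor, the clotting protein stored in endothelial granules. It stood at 4.72 and 7.78 FPKM in the WT hearts, against 8.13 and 3.68 FPKM in the miR-187 hearts. The highest and the lowest value were both in miR-187, so the groups overlapped, and the WT libraries also differed by 0.62 on the log2 scale. Means were 6.25 ± 2.17 and 5.91 ± 3.15 FPKM (SD, n = 2 each), a log2 difference of -0.12 (SE 0.39, interval 0.527 to 1.62). Its sign turned without WT replicate 2 (0.19) and without miR-187 replicate 2 (0.37), and the difference was -0.60 without miR-187 replicate 1.

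*Nos3* (ENSMUSG00000028978.12, chr5:24364816-24384474) encodes endothelial nitric oxide synthase, which relaxes the vessel wall through nitric oxide. The WT libraries gave 6.47 and 4.36 FPKM, the miR-187 libraries 8.13 and 6.15 FPKM. The groups overlapped, as miR-187 replicate 2 fell between the WT libraries. Means were 5.41 ± 1.49 and 7.14 ± 1.40 FPKM (SD, n = 2 each). The log2 difference was 0.35 (SE 0.36, interval 0.759 to 2.15). Same-numbered libraries differed by 0.29 (replicate 1) and 0.42 (replicate 2), but the labels do not pair them. The group difference was 0.11 without WT replicate 2 and 0.18 without miR-187 replicate 1.

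*Erg* (ENSMUSG00000040732.20, chr16:95359169-95586600) encodes an ETS-family transcription factor that maintains endothelial gene expression. At 3.45 and 2.63 FPKM in the WT hearts, against 3.93 and 2.81 FPKM in the miR-187 hearts, its groups overlapped, and the replicate 1 library was the higher in each. Means were 3.04 ± 0.586 and 3.37 ± 0.793 FPKM (SD, n = 2 each). The difference was 0.11 on the log2(FPKM + 1) scale (SE 0.35, interval 0.654 to 1.78), but -0.039 without WT replicate 2 and -0.077 without miR-187 replicate 1. At this low level the added 1 FPKM makes the fold appear smaller than it is in FPKM.

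The intervals bound what the 4 libraries can show. All 10 included a fold of 1, against 96.9% of all IDs. For 9 of 10 genes the lower end was above 0.5 on the FPKM + 1 scale, against 72.5%, and the exception was *Cdh5*. For the less abundant genes the added 1 FPKM draws folds towards 1, so these lower ends do not carry over to FPKM. The SEs of the 10 genes ran only from 0.347 to 0.427, since limma drew the spread of each gene largely from all IDs. The weight of this shared spread, the prior degrees of freedom, was 19.5. SEs therefore follow a gene's own replicates only weakly. Between miR-187 replicates the gap was 0.013 for *Egfl7* (SE 0.42) and -1.53 for *Tek* (SE 0.43). With a median SE of 0.39 over the 10 genes, moderate changes in either direction were not detectable. The lack of a call does not show that the groups were alike.

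The levels of the 10 genes also differed between libraries of a group. The counts of highest and lowest values, deviations and replicate gaps below were computed on FPKM without rescaling. The TMM factors were 0.929 for miR-187 replicate 1 and 1.11 for miR-187 replicate 2, so such rescaling lowers the former and raises the latter. Its effect on these values was not tested. In miR-187 replicate 1, 8 of the 10 genes had their highest value, against 30.3% of all IDs; the exceptions were *Cdh5* and *Egfl7*. It held the lowest value for 0 of 10 genes, against 16.0% of all IDs. The deviation of this library from the 4-library mean of each gene was 0.33 at the median of the 10 genes and 0.08 at the median of all IDs. In miR-187 replicate 2, 1 of 10 genes (*Egfl7*) had its highest value, against 17.3% of all IDs. In that library 4 of 10 (*Cdh5*, *Tek*, *Tie1* and *Vwf*) were lowest, close to the 39.1% of all IDs. Its median deviation was also near that of all IDs, at -0.11 over the 10 genes and -0.12 over all IDs. The gap between the miR-187 replicates had a median size of 0.48 on the log2 scale for the 10 genes and 0.37 for all IDs. Between WT replicates the respective sizes were 0.26 and 0.36, and the median size of the group difference was 0.33 over the 10 genes and 0.21 over all IDs. Without miR-187 replicate 2 the median difference of the 10 genes was 0.48, with 9 of 10 above 0, beside 0.06 over all IDs.

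**Figure D4:**
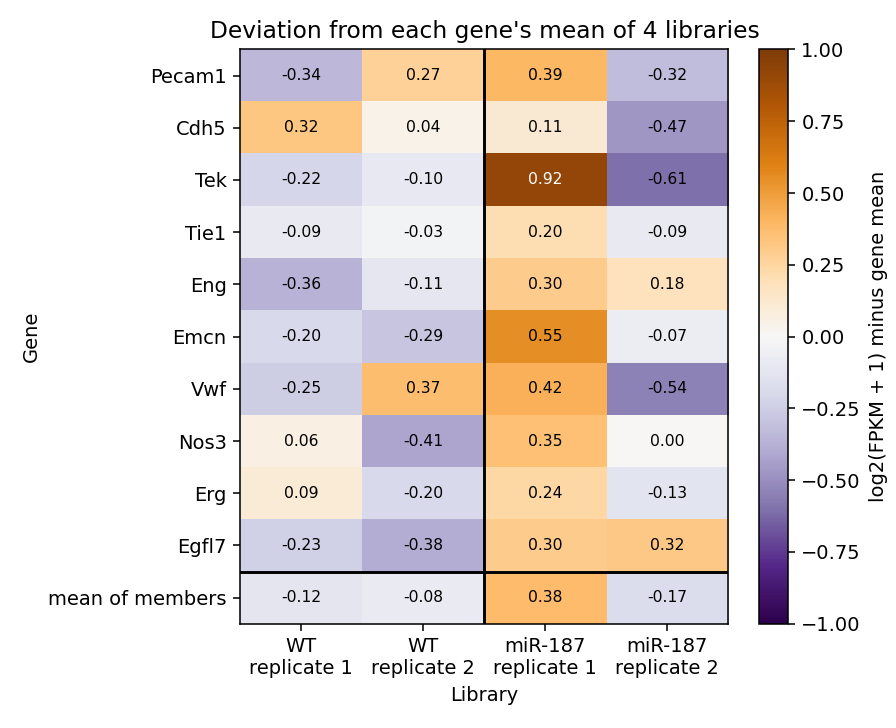
Deviation of each library from the mean of its gene over the 4 libraries, on the log2(FPKM + 1) scale, with positive values in orange, negative values in purple and the mean over the 10 genes in the last row. The column of miR-187 replicate 1 is positive for all 10 genes, with a mean of 0.38, whereas miR-187 replicate 2 has a mean of -0.17. Over all IDs tested the median deviation is 0.08 in the former library and -0.12 in the latter.

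Ratios between the genes within a library do not depend on how libraries are scaled. Of the 45 pairs among the 10 genes, 13 had ratios that did not overlap between the groups (28.9%), against 27.8% of all pairs among 14289 tested IDs with values above 0 in every library. The share of such pairs was thus close to the background. Each gene enters 9 pairs, which are not independent of each other, and the number that did not overlap ran from 0 (*Tek* and *Vwf*) to 6 (*Cdh5*). How many such pairs other IDs have was not computed, so nothing is read from these counts. As examples, chosen after their values were seen, *Egfl7* stood at 4.16 and 4.57 times *Cdh5* in WT and at 7.01 and 10.8 times in miR-187. *Cdh5* accounted for 11.5% and 9.42% of the summed level in WT and for 6.80% and 5.36% in miR-187. Both examples depend on *Egfl7*, which made up 43.0% to 57.9% of that sum and had the largest difference of the 10. The FPKM of *Cdh5* itself overlapped between the groups.

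**Figure D5:**
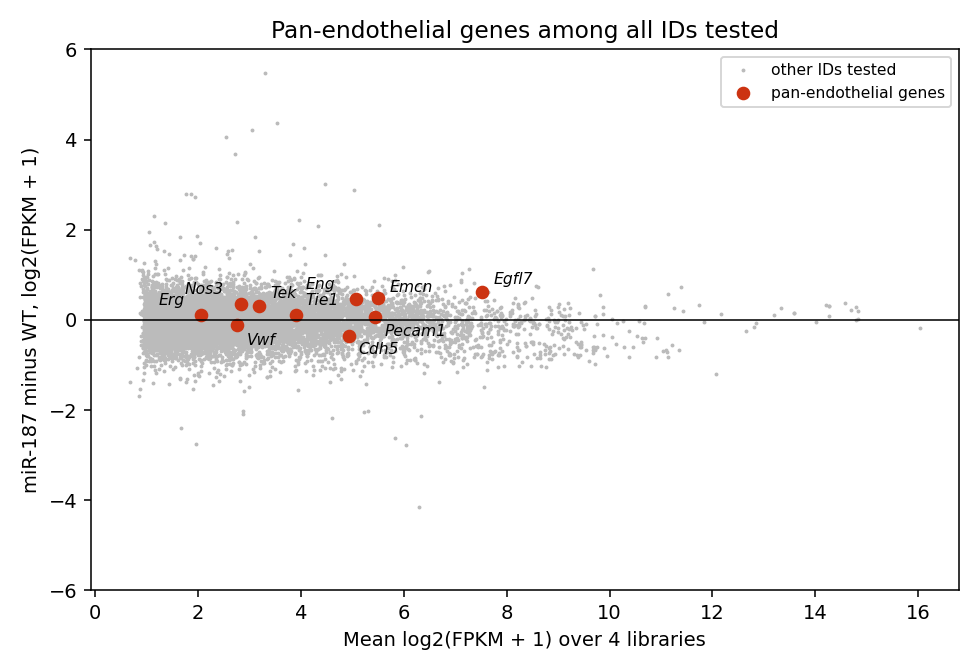
Difference between miR-187 and WT against the mean level of each of the 14325 IDs tested, both on the log2(FPKM + 1) scale, with the 10 pan-endothelial genes in red and the other IDs in grey. The red points lie between -0.36 (*Cdh5*) and 0.62 (*Egfl7*), inside the cloud of IDs of like level.

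Some reads could belong to neighbouring genes. In the RefSeq annotation of GRCm38.p6, 5 of the 10 genes overlap no other gene (*Pecam1*, *Tek*, *Tie1*, *Vwf* and *Erg*). *Nos3* shares 294 bp with *Atg9b* and contains the long noncoding RNA gene *Gm15587*. *Eng* shares 61 bp with *Fpgs* and contains *Mir1954* (86 bp) and the snoRNA gene *LOC115489602* (137 bp). *Cdh5* shares 4261 bp with *Gm29682*, and *Emcn* contains *Gm38650*. How the counting treated such overlaps was not given in the sources used here.

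IDs outside the set were compared with the mean pattern of the 10 genes. Among 2575 IDs whose mean reached 10 FPKM, with a spread no smaller than that of the mean pattern, 115 had a Pearson r above 0.9 with it over the 4 libraries. With 4 libraries, such values are common and are given as a description. The closest were ENSMUSG00000056071.12, at 24.6 and 26.1 FPKM in the WT hearts against 49.0 and 23.4 FPKM in the miR-187 hearts, and ENSMUSG00000031328.16, at 24.0 and 24.4 FPKM against 38.4 and 22.6 FPKM. Both were high in miR-187 replicate 1 alone.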

How the data were processed

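Heart RNA was sequenced as paired-end mRNA libraries on a NovaSeq instrument, per the labels. The authors deposited 1 table of FPKM values per Ensembl ID. The submitters' processing notes name HISAT2, StringTie and DESeq2 and the build mm10; versions, annotation and use of strand were not given in the sources used here. FPKM keeps no counts, so depth is unknown, and a few abundant transcripts can lower all other values of a library. Member names came with the list of IDs; positions were matched by symbol to RefSeq (GRCm38.p6). The members and lists were chosen with earlier results of these data known. A further 20 gene lists, of endothelial pathways and other cell types, and protein or promoter sequences were not analysed here, since the RefSeq table holds 0 Ensembl IDs.

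The 14325 IDs whose mean reached 1 FPKM were compared as log2(FPKM + 1) with limma 3.58.1 in R 4.3.3 (lmFit, eBayes with a trend, no replicate block), two-sided, with Benjamini-Hochberg adjustment over all of them and 95% intervals. All 10 members were named, by rule; the IDs of like pattern were those with the highest Pearson r, of which 2 are given because they have no names. As alternatives, each library was left out in turn, replicate number was added as a block, the trend was dropped, libraries were rescaled (quantiles, medians, or unweighted TMM factors with 30% of M and 5% of A trimmed at each end), the filter was set to 0.1 or 5 FPKM or removed, and the pseudocount was set to 0.1. Division by the FPKM sum without the 10 most abundant IDs was chosen after seeing the data. Figures were drawn with matplotlib 3.10.9.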

Additional observations from a re-analysis of the deposited data

How the results depend on the processing

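None of the 10 genes had an adjusted p under 0.05 (limma) under any of the 14 alternatives; *Erg* was not tested with the minimum mean of 5 FPKM. Their smallest adjusted p was 0.976 (*Vwf* without miR-187 replicate 1), although the calls over all IDs, 0 higher and 1 lower, became 31 and 15 with a minimum mean of 0.1 FPKM, 29 and 12 with division by the sum without the 10 most abundant IDs, and 0 and 0 with a minimum mean of 5 FPKM, no filter or quantile normalization; the cause was not tested. With the replicate block all 10 adjusted p-values were 1.00, with 0 members called and 33 higher and 18 lower IDs over all. Deviations of same-numbered libraries correlated at -0.0675 across IDs, and the labels tie them to no shared litter or day, so replicates were treated as unpaired. No scaling changed the sign of a member's difference. With median centring and with TMM factors 5 of 10 genes lay above WT in both libraries, *Tie1* and *Nos3* being added, against 14.2% and 14.1% of all IDs. With TMM factors *Cdh5* lay below WT in both, 1 of 10 genes against 12.7% of all IDs. With quantile normalization 2 genes, *Eng* and *Egfl7*, lay above (15.5% of all IDs) and 0 below (13.7%). The ratio of summed levels, 1.33, was 1.36 with median centring, 1.37 with TMM factors and 1.43 with the sum without the 10 most abundant IDs. It was 1.21 without miR-187 replicate 1, 1.46 without miR-187 replicate 2 and 1.33 without either WT library.

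Omission of 1 library leaves an arm of 1, assumed to vary like the other. Members above WT then numbered 3 to 9, and members below 0 to 4. Over all IDs the shares were 23.6% to 36.5% above and 24.0% to 43.9% below. The extremes were without miR-187 replicate 2 (9 of 10 above, against 36.5%) and without miR-187 replicate 1 (4 of 10 below, *Cdh5*, *Tek*, *Tie1* and *Vwf*, against 43.9%). An unadjusted p under 0.05 (limma) was seen for *Tek* without miR-187 replicate 2 (0.0225, against 3.22% of all IDs) and for *Egfl7* with quantile normalization (0.0403, against 3.20%), and for no member under the other 12 alternatives. Differences changed sign for *Pecam1* (-0.29 to 0.43), *Tek* (-0.45 to 1.08), *Tie1* (-0.030 to 0.26), *Vwf* (-0.60 to 0.37) and *Erg* (-0.077 to 0.30). *Cdh5* stayed negative (-0.66 without miR-187 replicate 1, -0.50 without WT replicate 2, -0.22 without WT replicate 1 and -0.068 without miR-187 replicate 2). *Emcn* stayed positive (0.18 without miR-187 replicate 1 and 0.79 without miR-187 replicate 2 at the extremes), as did *Nos3* (0.11 without WT replicate 2, 0.18 without miR-187 replicate 1, 0.53 without miR-187 replicate 2 and 0.59 without WT replicate 1), *Eng* (0.35 to 0.60) and *Egfl7* (0.54 to 0.69). Over all IDs these fits called 10 to 60 higher and 14 to 55 lower.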
